A study of Mus musculus with 6 samples.

Results

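Solute carriers are the membrane proteins that move amino acids, sugars, ions, cofactors and metabolites across the plasma membrane and across the membranes of mitochondria and lysosomes. Most work as exchangers or are coupled to a sodium or proton gradient, and the mitochondrial carriers of the Slc25 family share a fold that opens in turn to the cytosol and to the matrix. In hepatocytes they set how much glutamine, arginine and alanine is taken from the blood and how citrate, phosphate, ADP and ATP pass between the mitochondrion and the cytosol.

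The solute carriers described here are the genes with a symbol of Slc plus a digit whose mean log2 signal over all 6 arrays was above 4.8, after 15 transporters of other pathways (among them bile acid, fatty acid, carnitine, glucose, urea cycle and metal carriers) had been set aside by name. They are 23 of 18820 genes tested. Of 355 genes with such a symbol, 27 were above the limit, and 4 of these were among those set aside. The liver came from 2-month-old mice on the C57BL6 background, 4 of genotype Pcyt2+/- (replicates 1 to 4) and 2 wild type (replicates 3 and 4), with 1 array for each mouse. Pcyt2 encodes the rate-limiting enzyme of the CDP-ethanolamine route to phosphatidylethanolamine. The titles name the Pcyt2+/- mice knock-out, while the genotype field gives 1 altered allele, which is the wording used here. Neither the sex of the mice nor the design of the allele is stated in the labels. The values are log2 expression per probe set, and differences are Pcyt2+/- minus wild type.

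The mean level chose the members, so the levels are a description. The members' means ran from 4.81 (Slc35g1) to 8.79 (Slc38a3), in a table where every array had its median near 4.40 and 7.11% of genes had a mean above 4.8. Just inside the limit stood Slc35g1 (4.81) and Slc10a4 (4.81), and just outside it Slc29a1 (4.79), an equilibrative nucleoside transporter, and Slc17a2 (4.79), a phosphate and organic anion transporter. Both group means were above the limit for 21 members. Slc25a30 passed only through the Pcyt2+/- arrays and Slc35g1 only through the wild type arrays, so these 2 had to differ in the direction they did. Of the 23, 22 were measured by 1 probe set. Signals of different probe sets are not on a common scale, and no gene is ranked against another by its level here.

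By substrate, 7 members carry amino acids or related solutes and 9 are mitochondrial carriers of the Slc25 family. The remaining 7 are each the only member of their class: Slc17a5 (sialic acid), Slc48a1 (heme), Slc8b1 (sodium and calcium), Slc22a18 (an organic cation transporter relative), Slc35g1 (in a family named for nucleotide sugars), Slc10a4 (in the bile acid transporter family) and Slc9a3r1. Slc9a3r1 is the NHERF1 scaffold protein, which is no transporter and entered by its symbol.

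All hepatocyte markers measured were bright: 7 of the 8 listed were measured, all 7 had a mean above 4.8, and their summed linear signal ran from 12200 to 13300 on the Pcyt2+/- arrays and from 12600 to 13600 on the wild type arrays. Among them Cps1, the first enzyme of the urea cycle, had every Pcyt2+/- array below both wild type arrays, with a difference of -0.56 (unadjusted p = 0.0022, limma adjusted p = 0.529) that was -0.37 without wild type replicate 4. The groups overlapped for the other 6. Lower ranges without overlap were seen for 7.17% of all genes and 15.1% of those with a mean above 4.8. Of 59 listed markers of 10 other cell types, 49 were measured, and 2 of these had a mean above 4.8, Clec4g of sinusoidal endothelium and Dcn of stellate cells. None of the 49 had an unadjusted p under 0.05, against 3.44% of all genes on the lower side and 1.86% on the higher. Apart from these 2, the markers were at or below 4.8, where log2 differences are small. Their values therefore cannot show whether the mix of cells differed. The summed signal of the Kupffer cell list was 177 to 181 in Pcyt2+/- and 179 to 179 in wild type, and that of the sinusoidal list 161 to 165 and 162 to 162. Pcyt2 itself had 4.64 ± 0.028 (SD, n = 4) against 4.84 ± 0.064 (SD, n = 2), with every Pcyt2+/- array below both wild type arrays. Its difference was -0.20 (limma adjusted p = 0.264).

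In the main fit the solute carriers as a group lay close to the genes with a mean above 4.8, called brighter here. The means of that set ran up to 12.88 and those of the members to 8.79, so the set is not matched to them in level. By limma 0 of 23 members had an adjusted p under 0.05, where 0% of all genes did, and the members' adjusted p-values ran from 0.593 to 0.997. At an unadjusted p under 0.05, 4 members were lower in Pcyt2+/-, or 17.4%, against 3.44% of all genes and 13.9% of the 1339 genes with a mean above 4.8. In the other direction 1 member was higher, or 4.35%, against 1.86% of all genes and 5.15% of the brighter ones. The ranges of the groups did not overlap for the same 5 members, 4 lower and 1 higher, against 7.17% and 5.67% of all genes and 15.1% and 5.38% of the brighter ones. These shares are near the background of brighter genes and are no result about solute carriers. A lower group mean was seen for 14 members and a higher one for 9. That is 60.9% lower, against 51.9% of all genes and 61.5% of the brighter ones. An absolute difference of at least 0.1 was found for 6 members, or 26.1%, against 1.77% of all genes and 21.7% of the brighter ones. The median difference was -0.020, beside -0.0007 over all genes and -0.013 over the brighter ones. After quantile normalization an unadjusted p under 0.05 was reached by 3 members on the lower side (13%) and 4 on the higher (17.4%). The shares were 2.87% and 2.4% of all genes and 10.5% and 10.3% of the brighter ones. The median difference of the members was then 0.0045. Without Pcyt2+/- replicate 3 the counts were 5 lower (21.7%) and 6 higher (26.1%), against 3.37% and 2.06% of all genes and 12.7% and 8.59% of the brighter ones. Without wild type replicate 3 they were 5 (21.7%) and 0, against 3.95% and 2.52% of all genes and 16.7% and 5.23% of the brighter ones.

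**Figure D1:**
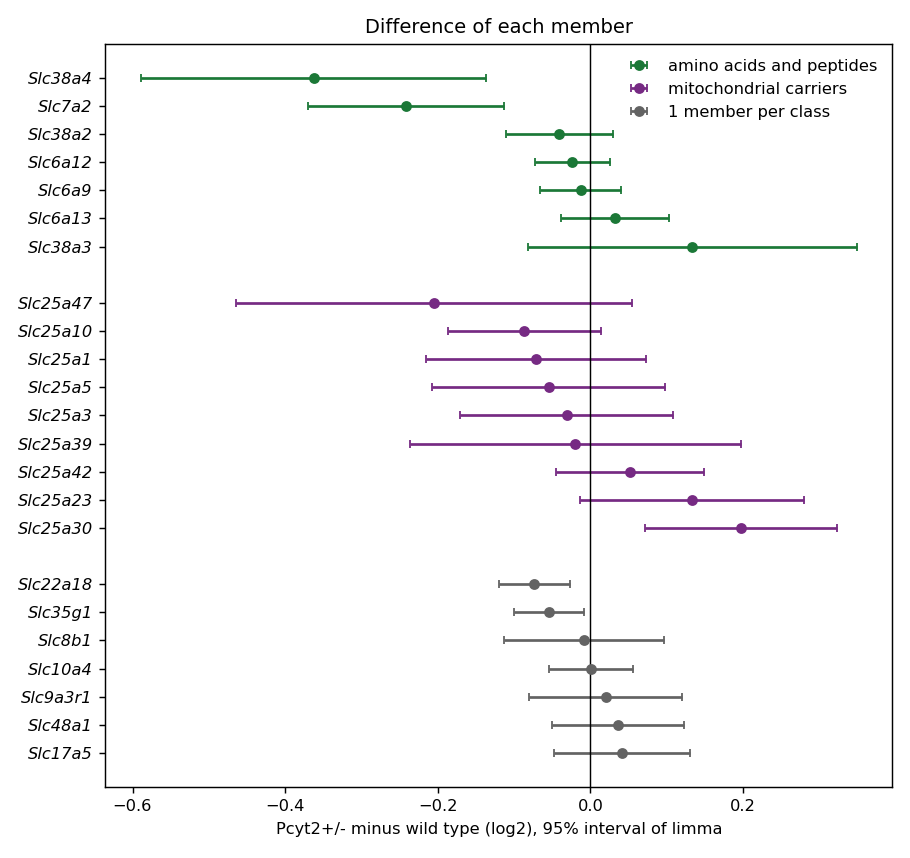
Log2 difference between Pcyt2+/- and wild type for each of the 23 members, with limma's 95% interval, grouped by substrate class. Slc38a4 and Slc7a2 lie to the left with intervals below 0, Slc25a30 to the right with an interval above 0, Slc22a18 and Slc35g1 close to the left of 0, and the intervals of the other 18 members include 0.

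Among the amino acid carriers, 2 of 7 had every Pcyt2+/- array below both wild type arrays. The same held for 7.17% of all genes and 15.1% of the brighter ones, and so few genes give no result about the class. Slc38a4 (SNAT4) is a sodium-coupled importer of neutral amino acids that is enriched in liver and is known as an imprinted gene. Pcyt2+/- replicates 1 to 4 had log2 values of 7.34, 7.30, 7.01 and 7.35, and the wild type mice 7.58 and 7.64. Every Pcyt2+/- array was below both wild type arrays, with a gap of 0.23 between the groups, and replicate 3 was well below the other Pcyt2+/- arrays. Mean expression was 7.25 ± 0.16 in Pcyt2+/- (SD, n = 4) and 7.61 ± 0.044 in wild type (SD, n = 2). The difference of -0.36 (SE 0.095, 95% interval -0.59 to -0.14) is a 1.29-fold higher signal in wild type (limma adjusted p = 0.688). It was -0.28 without Pcyt2+/- replicate 3 and -0.28 after quantile normalization.

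Slc7a2 (CAT2) carries arginine, lysine and ornithine. Pcyt2+/- replicates 1 to 4 had 5.19, 5.20, 5.11 and 5.17, against 5.31 and 5.51 on the wild type arrays. The groups did not overlap, with a gap of 0.10, while the wild type arrays themselves were 0.20 apart. Mean expression was 5.17 ± 0.042 in Pcyt2+/- (SD, n = 4) and 5.41 ± 0.14 in wild type (SD, n = 2). The difference was -0.24 (SE 0.054, limma adjusted p = 0.593). Without wild type replicate 4 the difference was -0.14, and without wild type replicate 3 it was -0.34. With each array's median signal subtracted on the linear scale, the difference of Slc7a2 was -0.52 and that of Slc38a4 -0.41.

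Slc38a3 (SNAT3), the system N carrier of glutamine, histidine and asparagine that hepatocytes around the central vein use to take up or release glutamine, had its mean on the other side. The values were 8.97, 8.89, 8.64 and 8.82 in Pcyt2+/- replicates 1 to 4 and 8.78 and 8.61 in wild type. The groups overlapped: Pcyt2+/- replicate 3 lay between both wild type arrays, and the other 3 lay above them. The difference was 0.13 (SE 0.091, 95% interval -0.082 to 0.35, limma adjusted p = 0.956). It was 0.046 with wild type replicate 4 left out, 0.22 without the other wild type array, 0.20 without Pcyt2+/- replicate 3 and 0.17 after quantile normalization.

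Slc38a2 (SNAT2), the family member known to be induced when amino acids are scarce, lies next to Slc38a4 on chromosome 15 with 0 protein-coding genes between them in the RefSeq annotation of GRCm38.p6. Slc38a2 differed by -0.041 (5.09 ± 0.048, SD, n = 4, against 5.13 ± 0.019, n = 2), with overlapping groups and a 95% interval of -0.11 to 0.030. The 250 bases before the start of each of these neighbours are shown, because the genes share a family and a place but not the size of their difference. They are RefSeq sequences of GRCm38.p6 on the minus strand, at chr15:97055957-97056206 for Slc38a4 (the most upstream of its 3 annotated windows) and chr15:96699729-96699978 for Slc38a2. Capitals mark matches to the GC box (GGGCGG) or the NRF2 antioxidant response element (TGACNNNGC) on either strand.
Slc38a4: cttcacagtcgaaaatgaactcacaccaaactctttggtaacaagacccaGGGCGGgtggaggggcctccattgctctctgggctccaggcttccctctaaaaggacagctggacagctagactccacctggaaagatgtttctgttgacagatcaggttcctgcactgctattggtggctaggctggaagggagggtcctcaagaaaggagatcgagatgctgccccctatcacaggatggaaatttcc
Slc38a2: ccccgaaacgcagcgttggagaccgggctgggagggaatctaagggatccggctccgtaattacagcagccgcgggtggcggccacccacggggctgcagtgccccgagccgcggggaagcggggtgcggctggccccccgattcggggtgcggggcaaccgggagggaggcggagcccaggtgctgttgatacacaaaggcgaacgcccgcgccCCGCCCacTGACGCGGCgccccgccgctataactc
The stretch before Slc38a2 is 72% G and C and holds a GC box 35 to 30 bases and a TGACNNNGC match 27 to 19 bases before the start. That before Slc38a4 is 52.8% G and C, with a GC box 200 to 195 bases before the start.

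The 3 carriers of the Slc6 family differed little. Slc6a12 (BGT1) imports betaine and GABA, and its neighbour on chromosome 6, Slc6a13 (GAT2), imports GABA and taurine, again with 0 protein-coding genes between them. Slc6a12 averaged 4.94 ± 0.031 in Pcyt2+/- and 4.97 ± 0.016 in wild type (SD, n = 4 and 2), and differed by -0.024 (95% interval -0.073 to 0.026). Slc6a13 had 5.50 ± 0.050 against 5.46 ± 0.0041 (SD, n = 4 and 2), a difference of 0.032 with an interval of -0.039 to 0.10. Slc6a9 (GlyT1), the glycine importer, differed by -0.013 with an interval of -0.066 to 0.040, and its sign turned after quantile normalization. Over the 7 amino acid carriers the differences ran from -0.36 to 0.13 with a median of -0.024, 5 lower and 2 higher in their mean.

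**Figure D2:**
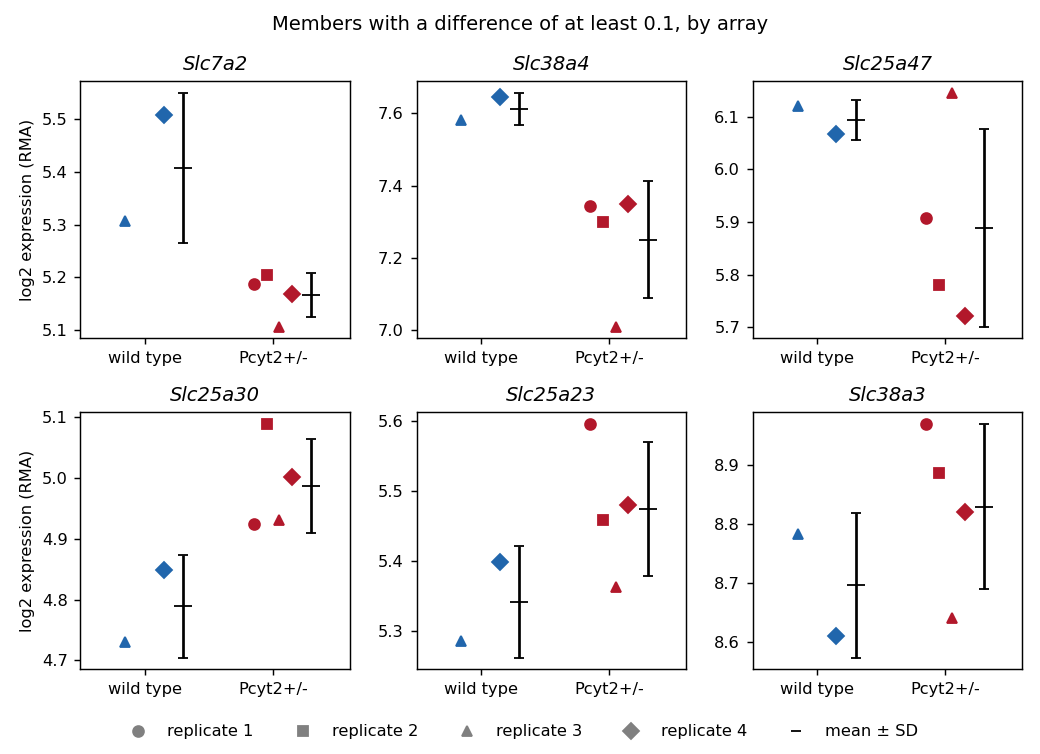
Log2 expression on each array for the 6 members with an absolute difference of at least 0.1. Each symbol shape is a replicate number, the bars are mean ± SD of each group (n = 2 wild type, n = 4 Pcyt2+/-), and each panel has its own scale. The groups are separate for Slc7a2, Slc38a4 and Slc25a30, and they overlap for Slc25a47, Slc25a23 and Slc38a3.

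The mitochondrial carriers had members on both sides, 6 lower and 3 higher in their mean, with a median of -0.031 and a range of -0.20 to 0.20. The median was 0.014 after quantile normalization. The 1 carrier whose groups did not overlap was Slc25a30 (KMCP1), a carrier first described in kidney. It had 4.925, 5.089, 4.931 and 5.002 in Pcyt2+/- replicates 1 to 4 and 4.73 and 4.85 in wild type. All 4 Pcyt2+/- arrays were above both wild type arrays, by a gap of 0.076 that is smaller than the 0.12 between the wild type arrays. Mean expression was 4.99 ± 0.077 in Pcyt2+/- (SD, n = 4) and 4.79 ± 0.084 in wild type (SD, n = 2). The difference was 0.20 (SE 0.053, 95% interval 0.072 to 0.32, limma adjusted p = 0.714). The difference was 0.14 without wild type replicate 3 and 0.26 without wild type replicate 4. Since this gene was above the limit of 4.8 through the Pcyt2+/- group alone, its direction is no support for a change.

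Slc25a23 (SCaMC-3), a calcium-regulated exchanger of ATP-magnesium for phosphate, had 5.60, 5.46, 5.36 and 5.48 in Pcyt2+/- and 5.29 and 5.40 in wild type. Pcyt2+/- replicate 3 lay between the wild type arrays, so the groups overlapped. The difference was 0.13 (SE 0.062, 95% interval -0.014 to 0.28, limma adjusted p = 0.936), 0.076 without wild type replicate 3 and 0.17 without Pcyt2+/- replicate 3. Slc25a42, which imports coenzyme A, differed by 0.052 with an interval of -0.045 to 0.15, and by 0.081 without Pcyt2+/- replicate 3.

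Slc25a47, a carrier found mainly in liver, was the mitochondrial member with the lowest difference and the widest spread. It had 5.91, 5.78, 6.15 and 5.72 in Pcyt2+/- replicates 1 to 4 and 6.12 and 6.07 in wild type. Pcyt2+/- replicates 1, 2 and 4 were below both wild type arrays and replicate 3 was above them. The difference was -0.20 (SE 0.11, 95% interval -0.46 to 0.054, limma adjusted p = 0.949), and -0.29 without Pcyt2+/- replicate 3. This was the 1 member whose highest value stood on the array of Pcyt2+/- replicate 3, which held the lowest value of 15 members.

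The stretches before the start of these 3 carriers are printed as those of the mitochondrial members that differed by at least 0.1, each from RefSeq in GRCm38.p6. They lie at chr14:75787038-75787287 (minus strand) for Slc25a30, chr17:57059864-57060113 (minus strand, the more upstream of its 2 windows) for Slc25a23 and chr12:108850879-108851128 (plus strand) for Slc25a47. Capitals again mark GGGCGG and TGACNNNGC on either strand.
Slc25a30: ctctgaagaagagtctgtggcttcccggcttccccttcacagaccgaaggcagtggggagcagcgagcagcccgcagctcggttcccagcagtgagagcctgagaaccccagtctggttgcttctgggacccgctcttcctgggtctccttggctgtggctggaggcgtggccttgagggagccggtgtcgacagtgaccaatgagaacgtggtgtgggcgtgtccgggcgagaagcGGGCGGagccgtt
Slc25a23: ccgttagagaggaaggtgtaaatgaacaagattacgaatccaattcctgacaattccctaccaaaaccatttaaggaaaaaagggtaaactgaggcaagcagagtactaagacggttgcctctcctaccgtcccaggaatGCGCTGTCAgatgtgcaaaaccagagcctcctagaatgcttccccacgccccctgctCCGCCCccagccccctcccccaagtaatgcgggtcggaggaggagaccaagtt
Slc25a47: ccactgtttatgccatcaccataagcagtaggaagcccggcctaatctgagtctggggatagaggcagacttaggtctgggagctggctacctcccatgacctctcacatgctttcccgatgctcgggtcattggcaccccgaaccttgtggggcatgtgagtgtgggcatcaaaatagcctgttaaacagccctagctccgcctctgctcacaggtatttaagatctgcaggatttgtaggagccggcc
Slc25a30 has a GC box 13 to 8 bases before its start, and Slc25a23 has one 53 to 48 bases before it with a TGACNNNGC match 110 to 102 bases before it. In the stretch of Slc25a47 none of the 8 motifs searched was matched.

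Of the 23 members, 19 had 1 or more windows in the RefSeq promoter table, 30 windows of 300 bases in all, and Slc48a1, Slc38a3, Slc8b1 and Slc7a2 had no entry. GGGCGG was found in 60% of the members' windows and in 35.7% of all 32851 windows, beside a median G and C content of 59.6% and 52.4%. TGACNNNGC was found in 26.7% and 12.4%, and the TATA box (TATAAA) in 3.33% and 13.6%. The HNF1 motif GTTAAT stood in 3.33% of the members' windows and 7.1% of all. The 4 other motifs searched on both strands had 0 matches in the members: CAAAGTCCA of HNF4 (0.475% of all windows), TGTTTAC of FOXA (3.65%), TGATGNAAT of ATF4 (0.965%) and the direct repeat of PPAR (0.0396%). Windows of 1 gene can overlap, and a match is a string of letters, not a site shown to be bound.

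The other 5 mitochondrial carriers overlapped between the groups. Slc25a5 (ANT2), which exchanges ADP for ATP, averaged 7.23 ± 0.062 in Pcyt2+/- and 7.29 ± 0.16 in wild type (SD, n = 4 and 2). It differed by -0.055 (95% interval -0.21 to 0.097), and by 0.057 without wild type replicate 4. Slc25a3, which imports phosphate, differed by -0.031 with an interval of -0.17 to 0.11, by 0.029 after quantile normalization and by 0.015 without Pcyt2+/- replicate 3. The dicarboxylate carrier Slc25a10, which exchanges malate and succinate for phosphate, had 5.16 ± 0.066 against 5.25 ± 0.050 (SD, n = 4 and 2), a difference of -0.087 with an interval of -0.19 to 0.013. It was -0.052 without wild type replicate 3 and -0.058 without Pcyt2+/- replicate 3. Slc25a1, the citrate exporter that feeds fatty acid and sterol synthesis, differed by -0.072 with an interval of -0.22 to 0.073. It was -0.038 without Pcyt2+/- replicate 3 and -0.12 without Pcyt2+/- replicate 1. Slc25a39, which brings glutathione into the matrix, differed by -0.020 with an interval of -0.24 to 0.20, and its sign turned after quantile normalization and without Pcyt2+/- replicate 3 (0.043).

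Among the members that are alone in their class, Slc22a18 and Slc35g1 are named after their values were seen, as the other members with an unadjusted p under 0.05. Slc22a18, a transporter of the organic cation family in an imprinted region, had 4.960, 4.954, 4.898 and 4.912 in Pcyt2+/- replicates 1 to 4 and 5.006 and 5.004 in wild type. The groups did not overlap, and the wild type arrays were 0.0020 apart. The difference was -0.074 (SE 0.020, 95% interval -0.12 to -0.027, limma adjusted p = 0.714). With the array medians subtracted on the linear scale it was -0.23.

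Slc35g1 had 4.796, 4.761, 4.806 and 4.807 against 4.822 and 4.871. The groups were 0.016 apart. The difference was -0.054 (SE 0.019, limma adjusted p = 0.872), and -0.030 without wild type replicate 4. It was above the limit through wild type alone, so this direction too was fixed by the choice of members.

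The other 5 had overlapping groups. Slc17a5 (sialin), which exports sialic acid from lysosomes, differed by 0.041 with an interval of -0.048 to 0.13. Slc48a1 (HRG1), which moves heme out of the lysosome, differed by 0.036 with an interval of -0.051 to 0.12. Slc9a3r1 differed by 0.020, with a sign that turned without Pcyt2+/- replicate 1 or wild type replicate 3. For Slc8b1 (NCLX), which exchanges mitochondrial calcium for sodium, the difference was -0.0085, and 0.0045 after quantile normalization. Slc10a4, a relative of the bile acid importers, had 4.81 ± 0.037 (SD, n = 4) and 4.81 ± 0.0028 (SD, n = 2).

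**Figure D3:**
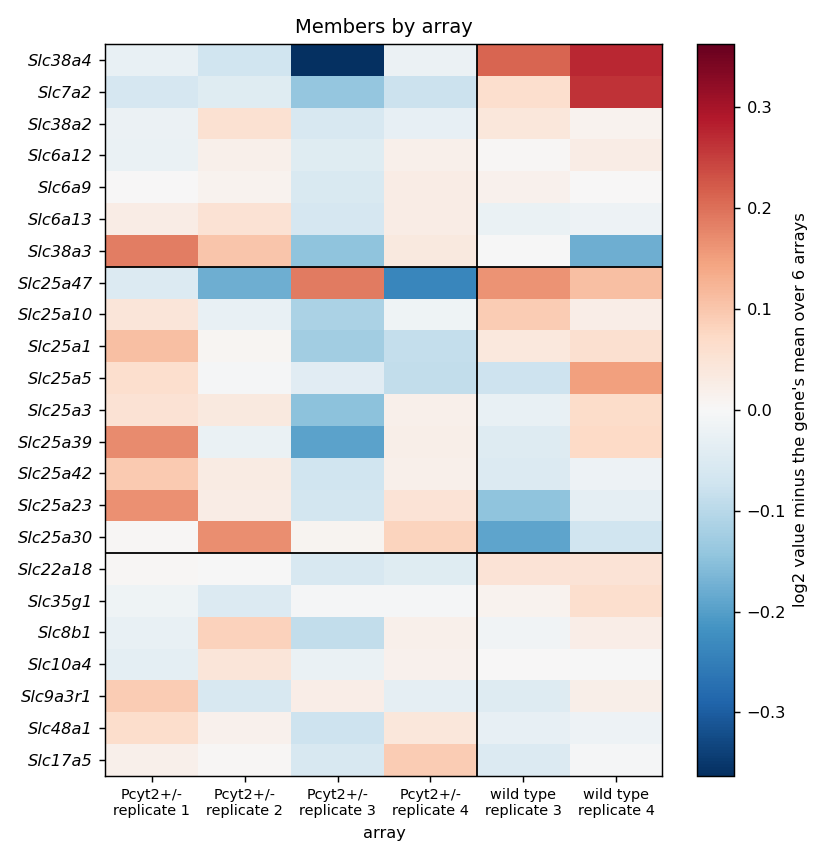
Each member's log2 value on each array minus its mean over the 6 arrays (red above, blue below), with members grouped by class and both genotypes separated by a line. The column of Pcyt2+/- replicate 3 is blue for most members, with Slc25a47 as the strongest exception, and the top 2 rows, Slc38a4 and Slc7a2, are red in both wild type columns.

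The array of Pcyt2+/- replicate 3 stood apart for the members. It held the lowest value of 15 of 23, or 65.2%, against 40% of all genes with a mean above 4.8 and 16.5% of the dimmer genes. The median deviation of the members from their own means was -0.062 on this array and between -0.0020 and 0.023 on the other 5. For all genes with a mean above 4.8 it was -0.032 on this array. Its part in the differences above was not tested. Without it, the sign turned for Slc25a3, Slc25a39, Slc6a9 and Slc8b1. Within the Pcyt2+/- group the range over the 4 mice was wider than the absolute difference between the genotypes for 18 of 23 members.

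**Figure D4:**
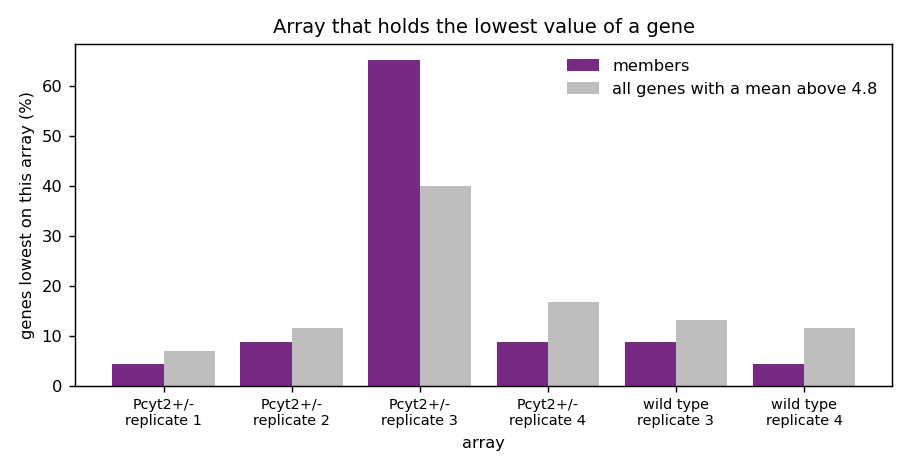
Share of genes whose lowest value stands on a given array, for the 23 members (purple) and for all 1339 genes with a mean above 4.8 (grey), in percent. Pcyt2+/- replicate 3 holds 65.2% of the members and 40% of the brighter genes.

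Another 317 carriers were at or below the limit. Of these, an unadjusted p under 0.05 was reached by 16 on the lower side and 5 on the higher. That is 5.05% and 1.58%, against 3.44% and 1.86% of all genes. None had an adjusted p under 0.05 by limma, and the median difference was -0.0017. Proteins that work beside carriers and those that regulate them were listed too. Of 18 listed partners and other transport proteins 15 were measured, and 5 of these had a mean above 4.8. An unadjusted p under 0.05 was reached by 0 of the 15, with a median of -0.0029. The shares were 3.44% lower and 1.86% higher of all genes, and 13.9% and 5.15% of the brighter ones. Groups did not overlap for 2, both lower, against 7.17% of all genes and 15.1% of the brighter ones. These 2 were Fxyd1 (-0.28, limma adjusted p = 0.945), with a gap of 0.0088 between the groups, and Sgk1. Of 20 regulators of transporter genes 18 were measured, and 14 had a lower mean, with a median of -0.021. A lower mean was seen for 51.9% of all genes and 61.5% of the brighter ones. At an unadjusted p under 0.05, 1 was lower (5.56%) and 2 higher (11.1%), against 3.44% and 1.86% of all genes and 13.9% and 5.15% of the brighter ones. By unadjusted p the first were Onecut1, a hepatocyte transcription factor (0.18, adjusted p = 0.662 by limma), Mlxipl, the carbohydrate response factor ChREBP (0.094, 0.817), Cebpa, a liver-enriched factor (-0.082, 0.897), and Sgk1, a kinase that acts on sodium transport (-0.031, 0.936).

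Markers of liver zones lay on both sides. Of 8 pericentral genes, 2 were lower at an unadjusted p under 0.05, Oat (-0.36) and Cyp2a5 (-0.47), and of 6 measured periportal genes 1 was lower, Hsd17b13 (-0.14), and 1 higher, Cyp2f2 (0.21). These are 25% lower in the pericentral list, and 16.7% lower and 16.7% higher in the periportal one. The shares were 3.44% and 1.86% of all genes and 13.9% and 5.15% of the brighter ones. A mean above 4.8 was seen for 5 of the 8 pericentral and 3 of the 6 periportal genes. The lowest limma adjusted p was 0.626 in the pericentral list and 0.219 in the periportal one. Cyp2a5 was at -0.27 without wild type replicate 3, and Cyp1a2 of the pericentral list had a higher mean (0.20) with overlapping groups. The summed signal was 2370 to 2690 in Pcyt2+/- and 2540 to 2840 in wild type for the pericentral list, and 1170 to 1400 and 1110 to 1190 for the periportal one. Several carriers described above are used in 1 zone of the lobule, and the part of zones in their differences was not tested. In whole liver, fewer cells of a type and less RNA per cell cannot be told apart.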

How the data were processed

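The authors deposited log2 expression per probe set, which per the submitters' processing notes comes from RMA. Its version, like the genome build, is not given in the sources used here. RMA pulls dim signals towards a floor, so log2 differences of dim genes are small. Of 28996 probe sets, 21218 had 1 gene symbol, 1881 several and 5897 none here. Of the first, 21185 matched RefSeq (GRCm38.p6). The probe set with the highest mean stood for a gene (18820 genes). Arrays have no sequencing depth, and their number limits the precision.

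Differences were tested with limma 3.58.1 (R 4.3.3; lmFit, eBayes, two-sided, 6 arrays, no covariates, Benjamini-Hochberg over all genes, threshold 0.05), checked on simulated data. Tables and figures used Python 3.11.15, pandas 2.3.3, numpy 2.4.6 and matplotlib 3.10.9. Members and lists were chosen with earlier results of these data known. Values by array were given for members with an absolute difference of at least 0.1 (up to 14 lower and 8 higher, by unadjusted p). For the 2 larger classes, the member with the highest mean and that with the largest difference were also named. Partners and regulators were named by unadjusted p, up to 4. Alternatives were other priors, normalizations, filters, rows, array weights, the replicate number as a block, and fits that drop 1 array.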

Additional observations from a re-analysis of the deposited data

Results flagged for a closer look

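In 2 of 24 genes checked (the 23 members and Pcyt2), 1 Pcyt2+/- array lay far from the other 3, with a gap to its nearest neighbour, as a share of the group's range, above Dixon's critical value. Slc38a4 had 7.009 on the array of Pcyt2+/- replicate 3, with a gap of 0.851 of the range. Slc25a3 had 6.871 on the same array, with a gap of 0.835 of the range. Chance flags about 1 in 20 groups, and this array held the lowest value of 15 members.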

How the results depend on the processing

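In all 17 fits (the main one, 10 other settings and 6 without 1 array) 0 members passed an adjusted p of 0.05, and the lowest one reached was 0.0945 (Slc7a2, without wild type replicate 3). Slc38a4, Slc7a2 and Slc22a18 had an unadjusted p under 0.05 in 17 of 17 fits, Slc25a30 in 16 and Slc35g1 in 10. The fits share the same 6 arrays, and several share the same differences, so none of these counts is independent support for a change. How many of all genes reach such counts was not computed. For Slc25a30 and Slc35g1 the direction was also fixed by the choice of members. Of the 21 members with a mean above 4.8 in each group, 3 were lower at an unadjusted p under 0.05 in the main fit. Fits without 1 wild type array leave 1, which is assumed to vary like the Pcyt2+/- arrays. The 4 members lower at an unadjusted p under 0.05 became 2 of 14 with a mean above 5. With one above 4.6 they became 10 of 62, since fewer or more genes count as members at these limits. Without 1 Pcyt2+/- array they ranged from 4 to 6, or 17.4% to 26.1%. The shares were then 2.94% to 3.53% of all genes and 12.5% to 17% of those with a mean above 4.8. The 1 member higher became 4 after quantile normalization, 0 with a mean above 5, 2 with one above 4.6 and 0 with one above 4.8 in each group, and ranged from 0 to 6 without 1 array. The labels name no pairing of the same-numbered arrays of both groups. Their deviations correlated over genes at 0.15 (replicate 3) and 0.072 (replicate 4). The deviations of 2 wild type arrays from their mean mirror each other, so these values cannot decide whether the arrays were paired. With a replicate block an unadjusted p under 0.05 was reached by 7 members on the lower side and 2 on the higher. The shares were 3.73% and 1.56% of all genes and 25.9% and 6.72% of those with a mean above 4.8. In that fit 2 of all genes passed an adjusted p of 0.05. Wild type has no replicate 1 or 2, so Pcyt2+/- replicates 1 and 2 do not enter the blocked difference. It rests on replicates 3 and 4 of each group. The median difference of -0.020 stayed within the 0.042 between arrays under all alternatives run, from -0.041 with the replicate block to 0.0045 after quantile normalization, and from -0.033 to 0.011 without 1 array. Of the single member values under other settings 224 kept their sign and 6 did not. Settings that change only the prior, the statistic or the genes tested reuse the main differences, so their signs could not turn. The same holds for the mean of a gene's rows in the 22 members with 1 probe set. Many of the 224 were thus fixed in advance and are no measure of stability. Without 1 array 125 kept their sign and 13 did not. The sign turned after quantile normalization for Slc25a3 (0.029), Slc25a39 (0.014), Slc6a9 (0.00024) and Slc8b1 (0.0045), and for Slc10a4 with the replicate block (-0.0034) and with the floor subtracted (-0.0038). Without 1 array the values ran from -0.014 to 0.013 for Slc10a4, -0.078 to 0.016 for Slc25a3, -0.080 to 0.043 for Slc25a39, -0.17 to 0.057 for Slc25a5, -0.023 to 0.0041 for Slc6a9, -0.038 to 0.020 for Slc8b1 and -0.014 to 0.054 for Slc9a3r1. Other causes were not tested.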

Other observations

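Slc38a3 and Slc38a4 carry neutral amino acids and belong to the same family. Their group means differed in opposite directions, with overlapping groups for Slc38a3, and both were below their own means on the array of Pcyt2+/- replicate 3. The log2 value of Slc38a3 minus that of Slc38a4 was 1.63, 1.59, 1.63 and 1.47 in Pcyt2+/- replicates 1 to 4, and 1.20 and 0.96 in the wild type mice. The means were 1.58 ± 0.075 (SD, n = 4) and 1.08 ± 0.17 (SD, n = 2), and the groups did not overlap. The change of this value between arrays is what is described, since the level itself also depends on the probe sets. Slc38a4 alone had separate groups, with a gap of 0.23, and this enters the value. The other pairs formed did not overlap either: Slc38a2 minus Slc38a4 differed by 0.32 between the groups and Slc6a13 minus Slc6a12 by 0.056. Slc38a4 enters the first of these as well. In the Slc6 pair the lowest Pcyt2+/- value was 0.516 and the highest wild type value 0.504. The share of other gene pairs without overlap was not computed, so these pairs are no result about the families. The pair of Slc38a3 and Slc38a4 was chosen after the values were seen, and no test is given.

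Beside the members, 2 of 23 probe sets whose annotation lists several genes, among them a solute carrier, had a mean above 4.8. The first had 5.27 on the array of Pcyt2+/- replicate 1, 4.94 to 4.98 on the other Pcyt2+/- arrays, and 4.88 and 4.93 in wild type. The second had 4.91 to 4.96 in Pcyt2+/- and 4.984 and 4.996 in wild type.

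Slc35g1, a member, and Slc29a1, just below the limit, have the same deposited value on 3 arrays: 4.796 in Pcyt2+/- replicate 1, and 4.822 and 4.871 in wild type. They are separate probe sets with different values on the other 3 arrays.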
